A study of Mus musculus with 7 samples.

Results

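The clustered protocadherins are the Pcdha, Pcdhb and Pcdhg genes, which lie side by side on mouse chromosome 18. Their H3K27me3 islands were taken as every island of 7 deposited liver lists that overlapped the stretch from 37080001 to 38010000 of build mm9, a span of 930 kb fixed by position and not by signal. The 7 lists held 122262 islands in all, and 74 of them lay in this locus. An island is a run of windows of 400 bp that the caller SICER found richer in reads than a random background. All 74 islands lay wholly inside the locus, so no island crossed either end of it.

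H3K27me3 is the trimethylation of lysine 27 of histone H3, placed by Polycomb repressive complex 2 over genes that are kept silent. Clustered protocadherins are cadherin-type adhesion proteins of the cell surface and are best known in neurons, where each cell uses its own combination of them and recognises its own branches by it. In the alpha and gamma clusters each variable exon has a promoter of its own and is spliced to constant exons shared at the end of the cluster, whereas the beta genes share no constant exons. The RefSeq table of the later build GRCm38 lists 14 Pcdha, 22 Pcdhb and 22 Pcdhg genes in that order along the chromosome. In it Slc25a2, a mitochondrial carrier, and Taf7, a subunit of the general transcription factor TFIID, lie among them, Zmat2 comes before the first Pcdha gene, and Diaph1, an actin-nucleating formin, and Hdac3, a histone deacetylase, come after the last Pcdhg gene. No mm9 annotation was used here, so islands are given by position and are not assigned to single genes.

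The livers came from male CD-1 mice, an outbred stock, aged 7 weeks. In the vehicle group 3 mice were injected with 1% DMSO in corn oil, and in the other group 4 mice were injected with TCPOBOP at 3 mg/kg. TCPOBOP is an agonist of the nuclear receptor CAR, which induces drug-metabolising enzymes in liver. Whole livers were collected 27 h after injection and each library came from a single animal, so hepatocytes and the other cells of the liver were measured together. Fewer cells with the mark and less of the mark per cell cannot be told apart in such samples, and the liver identity could not be checked against marker genes because the lists name no genes.

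The lists held 14167 to 20550 islands spanning 537 to 605 Mb, and they gave no read numbers, so the depth behind each island is unknown. Islands were fewest and widest in vehicle replicate 1, where the median island measured 31.2 kb against 20.8 to 24.4 kb in the other 6 lists. The livers numbered 2 in both groups had the shortest lists, 537 Mb each. They also had the least of their island length on chromosome 18, 3.32% with vehicle and 3.31% with TCPOBOP, against 3.68 to 3.69% in the other 5 lists.

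The protocadherin locus was covered in patches, with a strongly marked stretch at its far end and 2 long empty stretches before it. Islands covered 35.4, 36.6 and 43.8% of the locus in vehicle replicates 1 to 3. They covered 35.01, 36.5, 41.2 and 34.9% in TCPOBOP replicates 1 to 4. The ranges of the groups overlapped from 35.4 to 41.2%, and replicate 3 was the highest in each group. In all autosomal windows of the same 930 kb length, taken at steps of 20 kb, the mean cover over the 7 livers had a median of 19.4% and an upper quartile of 37.7%, and the locus had 37.6%.

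**Figure D1:**
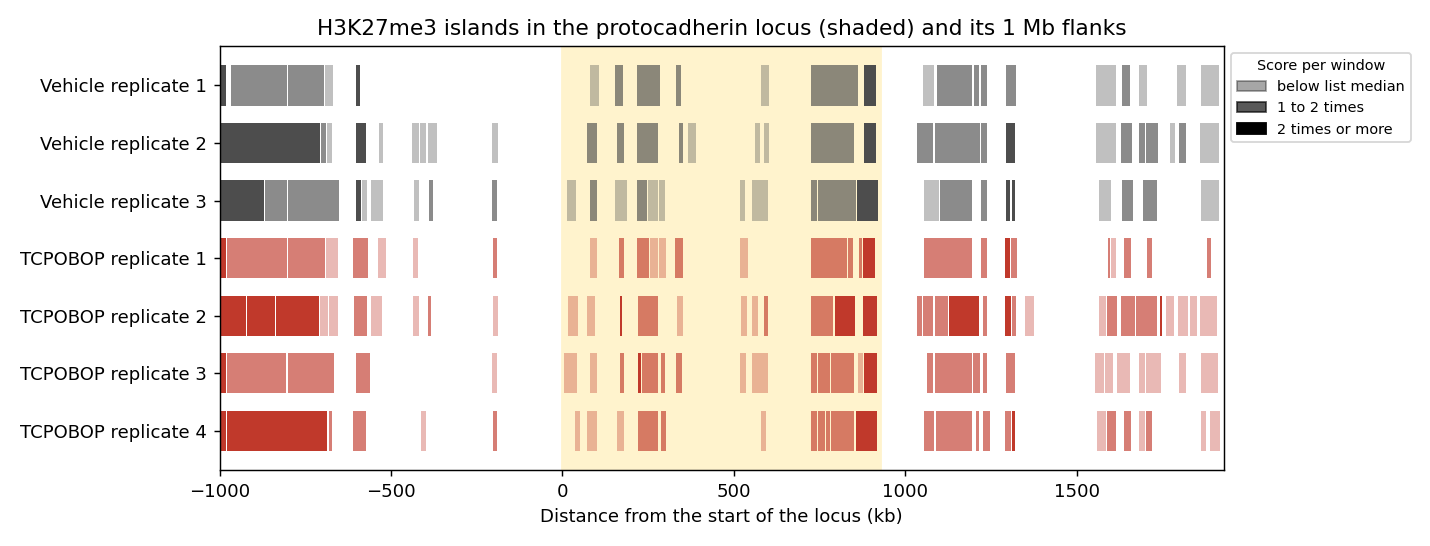
Each row is a liver and each bar an island, drawn by its distance in kb from the start of the protocadherin locus (shaded, 930 kb) with the flanking 1 Mb on both sides. Grey bars are vehicle and red bars TCPOBOP livers, and darker bars have a higher score per window relative to the median of their own list; in every row the widest covered stretch of the locus lies between 724.4 and 919.6 kb.

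Islands of the 7 livers that overlapped or touched were merged into 9 blocks, numbered along the chromosome. Blocks 2, 3, 4 and 9 had an island in all 7 livers. The mark was therefore shared by all animals at a part of the locus only: 208 kb (22.3%) was under islands in all 7 livers, 416 kb (44.7%) in none, and 514 kb in at least 1. These shares lay between those of the flanks. In the 1 Mb before the locus 29.4% was under islands in all 7 livers and 47.7% in none. In the 1 Mb after it the shares were 17.1 and 40.4%.

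Block 9, at the Pcdhg side of the locus, was the longest and held about as much island length as all the others together. It ran from 37804401 to 37999600 (195 kb), and its cover was 89.6 ± 6.18% in vehicle livers (SD, n = 3) against 86.6 ± 2.62% in TCPOBOP livers (SD, n = 4). It carried 44.4 to 54.1% of all island length in the locus of a liver, with a median of 48.2%. Block 4, from 37296401 to 37381200, was next with 16.8 to 23.8%, and its cover was 81.0 ± 9.94% with vehicle and 79.6 ± 10.1% with TCPOBOP. Blocks 4 and 9 together held 61.2 to 75.8% of the island length in the locus.

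Blocks 2 and 3 were shorter and also found in every liver. Block 2, from 37152001 to 37186000, had a single island of 26.4, 30.4 and 21.6 kb with vehicle and of 22.4, 22.4, 21.6 and 28 kb with TCPOBOP. Block 3, from 37234801 to 37269600, had a single island of 23.2, 22.4 and 34.8 kb with vehicle and of 12.8, 6.4, 12 and 20 kb with TCPOBOP. In block 2 the groups overlapped, and in block 3 every vehicle liver had a wider island than every TCPOBOP liver.

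The other 5 blocks came and went between animals. Block 1, at the Pcdha side from 37086001 to 37131600, had an island in 1 of 3 vehicle and 3 of 4 TCPOBOP livers. Block 5, from 37409201 to 37431200, had an island in 2 vehicle and 3 TCPOBOP livers, and vehicle replicate 3 and TCPOBOP replicate 4 lacked it. Block 6, from 37446001 to 37468400, was present in vehicle replicate 2 alone. Block 7, from 37597601 to 37622000, had an island in 1 vehicle and 3 TCPOBOP livers. Block 8, from 37632801 to 37683600, had an island in all livers except TCPOBOP replicate 1. Of these blocks none was present in every liver of a group and absent from every liver of the other, and absence means only that the list had no island there.

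Where an island lay in these variable blocks, it was usually weak for its list. The score per window, SICER's island score divided by the number of 400 bp windows, was set against the median over all islands of the same list, since scores move with depth and cannot be compared between lists. In block 1 this density was 0.450 to 0.674 times the list median, in block 7 0.603 to 0.839 times, in block 8 0.878 to 0.934 times, and in the single island of block 6 0.478 times. Block 5 was mixed, at 0.684 to 1.57 times. Block 2 lay at 0.561 to 1.04 times and block 3 at 0.595 to 2.21 times the list median. Block 4 was above the median in all 7 livers, at 1.20 to 1.48 times. Block 9 was the densest by its median over livers, at 1.65 to 2.34 times.

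**Figure D2:**
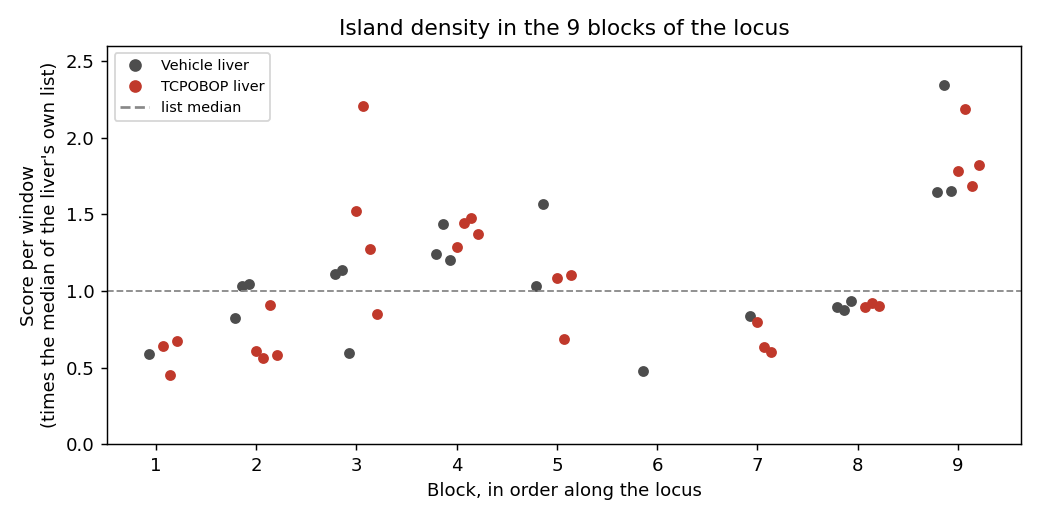
Points give the score per window of a block in each liver that had an island there, as a multiple of the median over the liver's own list (dashed line at 1), for the 9 blocks in order along the locus. Block 9 lies at 1.65 to 2.34 times the median in all 7 livers and block 1 at 0.450 to 0.674 times in the 4 livers that had it.

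The top-scored island of the locus lay in block 9 in every liver. It ranked between 331 and 1001 within its list, at the 94.6th to 97.9th percentile. This score is not corrected for width. The same islands lay at the 88.6th to 97.8th percentile of their lists by width and at the 83.5th to 93.9th by density. The densest island of the locus was the one that ended block 9 in 6 of 7 livers. In vehicle replicate 2 that island, from 37958801 to 37996000, had a density of 3.95 times the list median. In TCPOBOP replicate 3 the densest was a short island of 8.40 kb in block 4, at 3.56 times the list median. Over all 74 islands the density had a median of 1.18 times the list median, 29 islands lay below their list median and 10 above 2 times it.

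The empty stretches recurred in every animal. The locus held 10 stretches without an island in any liver, 9 of them at least 10 kb long. The longest was 129 kb, from 37468401 to 37597600, and the next was 121 kb, from 37683601 to 37804400, directly before block 9. Blocks 7 and 8 lay between these 2 stretches. In the flanks the longest stretch without an island in any liver was 187 kb before the locus and 178 kb after it. Within the locus the widest break of a single liver was 232, 173 and 217 kb in vehicle replicates 1 to 3. It was 183, 171, 170 and 279 kb in TCPOBOP replicates 1 to 4. TCPOBOP replicate 4 stood highest and had no island between 37381201 and 37660400, where blocks 5, 6 and 7 and a part of block 8 lay in other livers.

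Along the locus in bins of 20 kb, numbered from 1 to 47 with a last bin of 10 kb, 15 bins had cover in all 7 livers and 12 in none. The 12 empty bins were bin 7, bins 21 to 25, bins 32 to 36 and bin 47. Bins 41 and 45, both in block 9, were fully covered in all 7 livers. Next by mean cover were bin 42, fully covered in 6 livers and 86% covered in TCPOBOP replicate 1, and bin 39, fully covered in 6 livers and 84% covered in TCPOBOP replicate 4. Bin 13, in block 4, followed, with 86% in vehicle replicate 3 and TCPOBOP replicate 1 and full cover in the other 5. Mean cover fell from full to empty within 3 bins at the end of block 9.

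**Figure D3:**
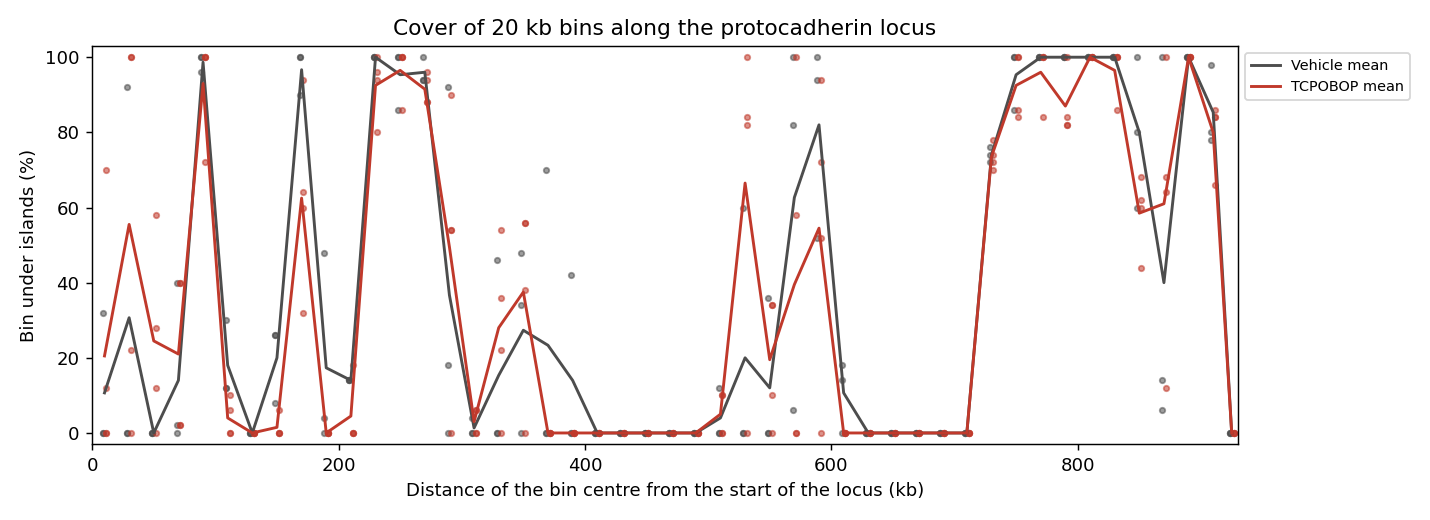
Percent of each 20 kb bin under islands against the distance of the bin centre from the start of the locus in kb; points are livers and lines the means of 3 vehicle (grey) and 4 TCPOBOP (red) livers. Both lines reach 100% in block 9, are at 0 in the 2 long empty stretches, and separate most in bin 27. There TCPOBOP livers spread from 0 to 100% and vehicle livers from 0 to 60%.

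The start of block 9 was the most sharply placed of the outer edges of blocks 2, 3, 4 and 9. Its first island began at 37804801, 37805601 and 37805201 in vehicle replicates 1 to 3. It began at 37805201, 37804401, 37805601 and 37806001 in TCPOBOP replicates 1 to 4. The 7 positions lay within 1.6 kb, or 4 windows of the caller. The range over livers was 2 kb or less at 13.3% of the 13248 outer edges of the 6624 regions of the genome that had an island in all 7 livers, where its median was 12.8 kb. The other end of block 9 lay within 6.40 kb, from 37993200 in TCPOBOP replicate 1 to 37999600 in vehicle replicate 3. The outer edges of blocks 2, 3 and 4 ranged over 4.80 to 22.4 kb. Of the 8 outer edges of these 4 blocks it was the 1 within 2 kb, a share of 12.5% that is close to that of the genome.

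Inside block 9 the livers differed in how the stretch was cut. The 30 kb between its last 2 segments shared by all livers, from 37928801 to 37958800, was left uncovered over 17.2, 26.8 and 4.00 kb in vehicle replicates 1 to 3. It was left uncovered over 18.4, 25.2, 14.4 and 6.40 kb in TCPOBOP replicates 1 to 4. Every liver thus lacked cover over a part of it, least in vehicle replicate 3 and TCPOBOP replicate 4 and most in the livers numbered 2. The breaks did not all coincide. In vehicle replicate 1 an island ended at 37941600 and the next began at 37958801. In vehicle replicate 3 an island ended at 37935200 and the next began at 37939201, so these breaks did not overlap. In TCPOBOP replicates 1 and 3 an island of 10 and 12.4 kb lay within the stretch and split the uncovered part. The widest island of block 9 was 137, 126 and 109 kb with vehicle and 104, 66.4, 67.6 and 67.6 kb with TCPOBOP. These values do not overlap, and this measure was chosen after its values were seen and was not tested. Among the 6624 merged regions present in all lists, 3.06% had wider islands in every vehicle than in every TCPOBOP liver. Islands were also wider over the whole list in vehicle replicate 1, and the part of this in block 9 was not tested. The summed cover of block 9 did overlap, at 164 to 188 kb with vehicle and 164 to 176 kb with TCPOBOP, and it was made of 2, 2 and 3 islands with vehicle and 4, 3, 5 and 5 with TCPOBOP.

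The number of islands in the locus was 7, 9 and 11 in vehicle replicates 1 to 3. It was 11, 11, 14 and 11 in TCPOBOP replicates 1 to 4. The groups met at 11, and the difference of 2.75 islands was not significant (95% interval 0 to 8, two-sided exact permutation p = 0.114 over 35 splits of the livers, the smallest possible being 0.0286). Breaks between islands gave the same difference, since each is the number of islands less 1. Vehicle replicate 1, whose list had the widest islands throughout, had the fewest, and without it the difference was 1.75. Without vehicle replicate 3 the difference was 3.75 (exact permutation p = 0.0667, the smallest that 15 splits allow). With only islands dense for their list the difference was 1.92 (exact permutation p = 0.0857). When breaks under 10 kb were closed the difference was 0.833 (exact permutation p = 0.657). A higher mean count with TCPOBOP was not particular to the locus. In the flank after it the mean was 10 islands with vehicle and 12.75 with TCPOBOP. In the flank before it the means were 7.67 and 7.25. The flank counts were not tested.

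Cover of the whole locus did not differ beyond the spread between livers. Its mean was 38.6 ± 4.52% in vehicle livers (SD, n = 3) against 36.9 ± 2.96% in TCPOBOP livers (SD, n = 4), a difference of -1.72 percentage points (95% interval -8.90 to 8.34, exact permutation p = 0.486). Without vehicle replicate 3 the difference was 0.871, and without both livers numbered 2 it was -2.58. Changes of any size within this interval are compatible with these values.

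The first island began 79.6, 72 and 13.6 kb into the locus with vehicle and 79.6, 17.6, 6 and 35.6 kb into it with TCPOBOP. These positions depend on whether block 1 was present, and the difference of -20.4 kb was not significant (95% interval -87.3 to 84.4, exact permutation p = 0.457). Without vehicle replicate 1 it was -8.10 kb, without vehicle replicate 3 it was -41.1 kb, and without both livers numbered 2 it was -6.20 kb. With only the islands at or above the median density of their list it turned to 77.6 kb (exact permutation p = 0.0286). That filter left out block 1 in every liver. It left out block 2 except in vehicle replicates 2 and 3, where block 2 had 1.03 and 1.04 times the list median. It also left out block 3 in vehicle replicate 3 and TCPOBOP replicate 4, at 0.595 and 0.849 times. In TCPOBOP replicate 4 the first island was then in block 4. The first edge then lay at 154.8, 72 and 80.8 kb with vehicle and at 166, 166.8, 166.8 and 220.8 kb with TCPOBOP. The last island ended 10.4 to 14.4 kb before the end of the locus with vehicle and 12.8 to 16.8 kb before it with TCPOBOP, a difference in position of -1.07 kb (95% interval -7.60 to 1.73, exact permutation p = 0.571).

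Single bins were compared in a limma fit over all 46553 bins of 20 kb of the genome in which at least 2 livers carried an island and cover was unequal, 31 of them in the locus. None of the 31 passed, with a lowest adjusted p of 0.945 (limma, Benjamini-Hochberg), and 0% of all bins tested passed. At an unadjusted p under 0.05 there was 1 bin of the locus, against 3.47% of all bins tested. The difference had a median of -3.50 percentage points over the 31 bins, with a median standard error of 11.3, and a median of 0 over all bins to the precision of the fit. In simulated covers with 100 percentage points added in 100 bins, the fit recovered 33% of those bins. A bin that is already partly covered cannot gain that much. The share of real changes that the fit would find was therefore not tested, and a change of a single bin could be missed.

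In 2 of the 31 bins every vehicle liver had more cover than every TCPOBOP liver, and in 0 the reverse held. Over all bins tested 1.4% separated with vehicle higher and 1.34% with TCPOBOP higher. Bin 8, from 37220001, had 26, 8 and 26% cover with vehicle and 0, 0, 0 and 6% with TCPOBOP. The difference was -18.5 percentage points (SE 7.64, limma adjusted p = 0.945, unadjusted 0.0389). Bin 6, from 37180001, had 30, 12 and 12% with vehicle and 10, 0, 6 and 0% with TCPOBOP, a difference of -14 percentage points (SE 8.01, limma adjusted p = 0.945), or of -8 without vehicle replicate 1. Bin 8 holds the start of block 3 and bin 6 the end of block 2, so both are differences in where an island began or ended.

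The 5 largest differences in mean cover were in bins where the TCPOBOP livers disagreed among themselves. In bins 2, 27 and 30 the vehicle livers disagreed too, with 0, 0 and 92% in bin 2 and 100, 52 and 94% in bin 30. Bin 27, in block 7, had 0, 0 and 60% with vehicle and 100, 84, 82 and 0% with TCPOBOP, a difference of 46.5 percentage points (SE 28.6, limma adjusted p = 0.945). Bin 9, in block 3, had 90, 100 and 100% with vehicle and 64, 32, 60 and 94% with TCPOBOP, a difference of -34.2 (SE 15.6, limma adjusted p = 0.945). The groups overlapped in bin 9 through TCPOBOP replicate 4. Bin 30, in block 8, differed by -27.5 (SE 24.5), bin 2, in block 1, by 24.8 (SE 34.4), and bin 3, also in block 1, by 24.5 (SE 13.99). Single livers moved several of these differences. In bin 30 it was -9.33 without TCPOBOP replicate 1 and -42.5 without vehicle replicate 2. In bin 2 it was 9.5 without vehicle replicate 1 or 2, 55.5 without vehicle replicate 3, 43.3 without TCPOBOP replicate 1 and 10 without TCPOBOP replicate 2 or 3. In bin 3 it was 13.3 without TCPOBOP replicate 4. Without both livers numbered 2 the difference was 30.7 in bin 27, -22.3 in bin 9 and -41.7 in bin 30, and in bin 2 it turned to -5.33.

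The island of block 3 began at 37234801, 37238401 and 37234801 with vehicle and at 37246001, 37246801, 37246801 and 37238801 with TCPOBOP. The groups do not overlap in cover or in this edge, and the nearest livers, vehicle replicate 2 and TCPOBOP replicate 4, were 1 window of 400 bp apart in the edge and had 22.4 and 20 kb of cover. Of the 4 blocks with an island in all 7 livers, 1 separated by cover with vehicle higher, and 2.17% of all 6624 such regions did. The edge began later in every TCPOBOP liver in 1.78% of them. Block 3 was picked out after its values were seen and was not tested as a block. Bins 8 and 9, which overlap it, were in the limma fit and did not pass (limma adjusted p = 0.945 in both).

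The flanks of the locus were as unevenly marked as the locus itself. The flank before it, the 1 Mb from 36080001 to 37080000, was 32.4, 44.1 and 44.9% covered with vehicle and 42.8, 44.4, 38.4 and 38.7% with TCPOBOP. The flank after it, from 38010001 to 39010000, was 38.4, 45.4 and 34.1% covered with vehicle and 25.6, 51.3, 40.4 and 33.5% with TCPOBOP. Neither differed between the groups beyond the spread of livers: the difference was 0.623 percentage points before the locus (95% interval -6.43 to 12.04, exact permutation p = 0.914) and -1.59 after it (95% interval -29.8 to 30.1, exact permutation p = 0.857). Without vehicle replicate 1 the former was -3.41, and without TCPOBOP replicate 1 the latter was 2.44.

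Set against both flanks together, the cover of the locus differed by -1.98 percentage points (exact permutation p = 0.438, permuting signs within the 7 livers), with 4 livers above 0 and 3 below. The livers numbered 2 were the farthest below, at -8.16 with vehicle and -11.4 with TCPOBOP, and without both the mean turned to 1.13. This difference between locus and flanks was -1.28 ± 6.33 in vehicle livers (SD, n = 3) against -2.51 ± 6.05 in TCPOBOP livers (SD, n = 4), and the groups differed by -1.24 (95% interval -21.9 to 9.92, exact permutation p = 0.771). Without vehicle replicate 3 that difference turned to 1.56 and without TCPOBOP replicate 2 to 1.72.

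The average over 1 Mb hid the immediate surroundings. The locus stood between 2 gaps without an island in any liver, of 193 kb before block 1, from 36893201 to 37086000, and of 116 kb after block 9, from 37999601 to 38115200. In single livers the gap before the first island of the locus was 195 to 668 kb, longest in vehicle replicate 1, and the gap after the last was 119 to 148 kb. Of the nearest 500 kb before the locus 0 to 15.5% was covered, whereas 64.8 to 81.4% of the 500 kb before that was. After the locus 36.0 to 47.1% of the nearest 500 kb and 12.96 to 55.4% of the next were covered. Against the nearest 500 kb on both sides together the locus was more covered in 7 of 7 livers, by 6.36 to 21.6 percentage points with a mean of 14.3 (exact permutation p = 0.0156, the smallest that 7 livers allow). The 2 sides differed in this. Against the nearest 500 kb before it the locus was more covered in 7 of 7 livers, by a mean of 31.0 percentage points (exact permutation p = 0.0156). Against the nearest 500 kb after it the locus was less covered in 5 livers and more covered in vehicle replicate 3 and TCPOBOP replicate 3, with a mean of -2.54 (exact permutation p = 0.344). The direction of the comparison with the flanks thus depended on the side and on the length of flank. The p-values of these sign tests weigh agreement between livers for fixed stretches. They do not set the locus against other loci. The single 500 kb sides were chosen after seeing the data.

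**Figure D4:**
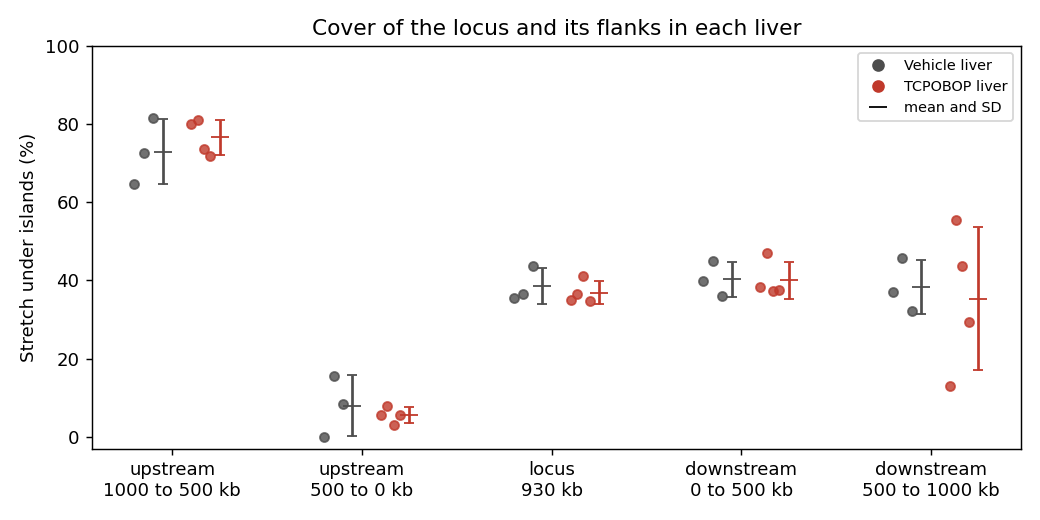
Percent of each stretch under islands in the locus (930 kb) and in the nearer and farther 500 kb of each flank; points are livers, grey for vehicle and red for TCPOBOP, and bars beside them give the mean and SD. The nearer 500 kb before the locus lies at 0 to 15.5%, below the locus at 34.9 to 43.8%, and the farther 500 kb above both at 64.8 to 81.4%.

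Islands of the locus were less dense than those of both flanks together when every window counted equally, and this held for the flank before the locus and not for the one after it. The summed score per window of the locus was 0.847 to 0.944 times that of both flanks within the same list, lower in 7 of 7 livers (mean log2 ratio -0.17, exact permutation p = 0.0156, the smallest that 7 livers allow). Without both livers numbered 2 the log2 ratio was -0.18, with p = 0.0625 as the smallest that 5 livers allow in an exact permutation test. As the median over islands, in which a wide island counts no more than a short one, the log2 ratio was 0.00046 (exact permutation p = 1). Against the flank before it alone the log2 ratio was -0.41, below 0 in 7 of 7 livers (exact permutation p = 0.0156). Against the flank after it alone it was 0.14, above 0 in 5 livers and slightly below it in vehicle replicate 3 and TCPOBOP replicate 1 (exact permutation p = 0.0625). As for cover, these p-values weigh agreement between livers and not the locus against other loci, and the single sides were chosen after seeing the data. In the locus the summed density was 1.27 to 1.71 times the list median, in the flank before it 1.66 to 2.31 times and in the flank after it 1.11 to 1.54 times. In all 7 lists an island ran across the far end of the flank before the locus and was counted whole.

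Pairs of livers shared islands in the locus to a similar degree whatever their treatment. The Jaccard index, the length under islands in both livers divided by that in either, ran from 0.617 to 0.788 over 21 pairs with a median of 0.656. Its mean was 0.670 over the 9 pairs within groups and 0.667 over the 12 pairs between groups. The highest value was for vehicle replicate 3 with TCPOBOP replicate 3 and the lowest for vehicle replicate 2 with TCPOBOP replicate 3. The medians in the flanks were 0.788 before and 0.657 after the locus. These indices are given as a description, since pairs share livers.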

How the data were processed

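H3K27me3 ChIP-seq was done on 7 livers. Per the submitters' processing notes, Bowtie2 2.3.2, SICER 1.1 and build mm9 were used. The authors deposited 1 island list per liver with a score for each island, per the list names with a 400 bp window, a 2400 bp gap and E-value 100. Input control, duplicates and read numbers are not given in the sources used here. A score rises with depth, so it was used within a list only. Islands are called against each library's own background, and the gap joins windows up to that distance, so breaks depend on it. Replicates are separate animals. Cover was the percent of a stretch under islands. Groups were compared with two-sided exact permutation tests of the difference of means, intervals by inverting them, and locus against flanks by permuting signs within livers (Python 3.11.15, NumPy 2.4.6). Bins of 20 kb were fitted genome-wide in R 4.3.3 by limma 3.58.1 with trended, robust variance, tested on simulated data. Bins named were those lowest, highest, separated between groups or among the 5 most different. The locus and the lists were chosen with earlier results of these data known. The labels do not say whether a replicate number pairs livers, so the main tests used no pairing. Over the genome bins, deviations from the group means correlated most between the livers numbered 2, at 0.224.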

Additional observations from a re-analysis of the deposited data

Results flagged for a closer look

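For 5 of 27 measures of the locus and its flanks, 1 of the 4 TCPOBOP livers lay far outside the rest. The limit used is one that a single measure passes by chance in about 1 of 20 groups, but several of these measures are linked, so the 5 are not independent. TCPOBOP replicate 3 had 14 islands in the locus against 11 in each of the others. TCPOBOP replicate 1 had the widest island of the locus, 104.4 kb against 66.4 to 67.6 kb, and its last island ended 16.8 kb before the end of the locus against 12.8 to 13.2 kb. TCPOBOP replicate 4 had the widest break of the locus, 279.2 kb, against at most 183.2 kb. In the flank after the locus TCPOBOP replicate 1 had a median break of 36 kb against 9 to 12.6 kb.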

How the results depend on the processing

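Of 257 values under alternatives, 237 kept their direction and side of the threshold. For many the side was fixed in advance. Exact group tests with livers left out had 10, 15 or 20 splits, and those with the replicate block 8 sign assignments. None of these can give a p under 0.05. Islands and breaks gave the same values and both were counted, and the count of bins called was judged by its size. With only islands dense for their list, the group difference of the flank after the locus turned to 1.40 percentage points and that of the first edge to 77.6 kb (exact permutation p = 0.0286, the smallest possible; 0.286 to 1 under its other alternatives). With locus ends 20 kb inward the last edges were cut off and the difference was 0. Locus less flanks over all livers turned to 14.3 points with flanks of 500 kb, to 31.0 with the nearest 500 kb before the locus alone and to 1.13 without both livers numbered 2. Its group difference turned to 0.67 with the nearest 500 kb before the locus. Single 500 kb sides, single sides for density and leaving out the livers numbered 2 were chosen after seeing the data. Locus over flank density turned to 0.00046 as a median over islands and to 0.14 against the flank after the locus alone, and was -0.18 without both livers numbered 2, where 5 livers cannot pass. The difference in bin 2 turned to -5.33 without them. Beyond the cut edges, the blocks left out at the first edge and the number of livers, the cause was not tested.

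Leaving out each liver in turn, the group difference ran from -3.30 to 0.871 points for the locus, -3.41 to 2.83 for the flank before it, -6.11 to 2.44 for the flank after it, -4.68 to 1.72 for locus less flanks, and -1.80 to 0.200 kb for the last edge. Without trend and robust variance limma called 37 bins of the genome, 0 of them in the locus, against 0 with them. With the replicate block, for which the numbers gave correlations of 0.037, 0.224 and 0.0545 and not every liver matched its own number best, the locus differed by -1.05 points (exact permutation p = 0.25, the smallest 3 pairs allow) and the count of bins called stayed at 0.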
